A study of Mus musculus with 58 samples.

Results

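The comparison described here is the difference between the warming effect in beige adipocytes and the warming effect in brown adipocytes of the mouse. For every gene it takes warm beige minus cold beige and subtracts warm brown minus cold brown. Values are on the deposited log2 CPM scale (CPM, counts scaled by library size). It used 17 of the 22 mRNA libraries in a series of 58 samples, and all 11603 rows of the expression table. The title of the series speaks of a reprogramming of identity on warming in beige cells and not in brown ones.

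Warm beige (n = 3) and cold beige (n = 4) libraries came from inguinal white fat, and warm brown (n = 5) and cold brown (n = 5) libraries came from brown adipose tissue. All mice were C57BL/6J mice carrying NuTRAP, a transgene that labels ribosomes with GFP wherever Cre is active. The design names Ucp1-NuTRAP and Adipoq-NuTRAP mice, whose Cre is driven by a promoter of thermogenic adipocytes and by a promoter of all adipocytes, and it does not give the line of each library. Animals of all 4 groups were kept at 23 °C on chow. Cold groups were then held at 4 °C for 1 week. Warm groups had the same cold exposure first and afterwards spent 4 weeks at 30 °C. A further 5 warm white libraries, from inguinal fat of NuTRAP mice born and kept at 30 °C, entered the fit for its estimate of the spread and serve as a separate readout. Anti-GFP pulldown (TRAP) recovered these ribosomes, so that the libraries hold mainly ribosome-bound mRNA of the tagged cells. The labels call the libraries biological replicates and tie none to an animal shared between tissues.

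Brown adipocytes form a dedicated depot and burn fuel for heat through the uncoupling protein Ucp1, whereas beige adipocytes appear within white fat in the cold and carry the same heat-producing machinery. Cold acts through noradrenaline, β-adrenergic receptors and cyclic AMP, which turn on lipolysis, mitochondrial genes and Ucp1. Warmth removes that drive from both cell types. A difference of warming effects near 0 therefore marks a gene that changed alike, or not at all, in both. A large one marks a gene whose change with warming differed between beige and brown libraries. These libraries also differ in depot and perhaps in Cre line, and the part of cell type alone was not tested.

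Adipocyte genes were high in all 4 groups. Plin1, the lipid droplet coat protein, averaged 10.35 log2 CPM in warm beige libraries, and Adipoq, which encodes adiponectin, averaged 9.31 log2 CPM there. Library depth is unknown, and antilogs of the values summed to 0.859 to 1.10 times the nominal CPM total. Sums above that total cannot come from scaling each library to its own total alone. Markers of other cells also moved with the groups. The summed level of 17 measured of 18 fibroblast and preadipocyte markers was 8480 to 12500 CPM in warm beige and 1800 to 2260 CPM in cold beige libraries, and 1030 to 1200 CPM in warm brown and 170 to 318 CPM in cold brown libraries. All 18 endothelial markers were measured and summed to 888 to 1380 CPM in warm beige and 273 to 634 CPM in cold beige libraries. Their range was 247 to 407 CPM in warm brown libraries and 89.4 to 103 CPM in cold brown libraries 2, 3 and 4, while cold brown 1 and 5 stood apart at 313 and 295 CPM. For 16 measured of 20 skeletal muscle markers, warm beige 1 and 2 stood apart at 515 and 486 CPM, against 104 CPM in warm beige 3 and 44.0 to 105 CPM in cold beige. Muscle sums were 48.1 to 68.8 CPM in warm brown and 201 to 290 CPM in cold brown libraries. The precursor of ribosomal RNA, Rn45s, accounted for 4.32% to 5.72% of all values summed in the warm beige libraries and for 0.436% to 1.15% in cold beige. Its share was 0.110% to 0.597% in warm brown libraries, against 0.0575% to 0.0994% in cold brown. The part of these shifts in the results below was not tested, and in bulk libraries fewer cells of a type and less RNA per cell cannot be told apart.

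Warming moved many genes unequally in beige and brown cells, and on the deposited scale most of the called differences were more negative in beige. Limma called a difference of warming effects in 5477 of 11603 rows (47.2%; Benjamini-Hochberg adjusted p under 0.05). Of these, 3765 were more negative in beige (32.4% of all rows) and 1712 more positive (14.8%). A difference of at least 1 log2 unit, which is 2-fold, was called in 1999 rows (17.2%). The deposited values part the libraries into 2 sets, seen in rows at the lowest values of the scale, and the labels name no batch. Set 1 holds brown libraries 1 and 2 of each temperature, cold beige 1 and 4, warm beige 3 and 3 warm white libraries. Set 2 holds the rest. Both sets are part of the fit of all libraries, so neither is a separate test of its calls. Fitted alone, set 1, with 1 warm beige library whose spread is taken to be like that of the other groups, called 1969 differences and set 2 called 4829, and in neither was a called difference of the opposite sign to the fit of all libraries.

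This balance depended on scaling. The median difference over all rows was -0.17 log2 units, with 31.3% of the calls positive. After quantile normalization the median was 0.03 and 49.7% of 6237 calls were positive, and when the 20 most abundant genes were left out of the library totals the median was -0.08 and 40.8% of 5393 calls were positive. Effects of single genes below are on the deposited scale and are to be read against a median warming effect over all rows of 0.03 log2 units in beige and 0.13 in brown.

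Across genes, the warming effects of the 2 cell types were nevertheless positively related. Across the 11603 genes, which are not independent replicates, the beige and brown warming effects had a Pearson r of 0.707 and a Spearman rho of 0.729. The 2 effects share no library. The median size of the effect was 0.69 log2 units in beige and 0.54 in brown. Among the called differences, 1761 rows changed in the same direction with the larger change in beige and 704 with the larger change in brown. A warming effect was called in 8453 rows in beige (72.9%; 36.0% of all rows up and 36.9% down) and in 8274 rows in brown (71.3%; 41.2% up and 30.1% down).

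**Figure D1:**
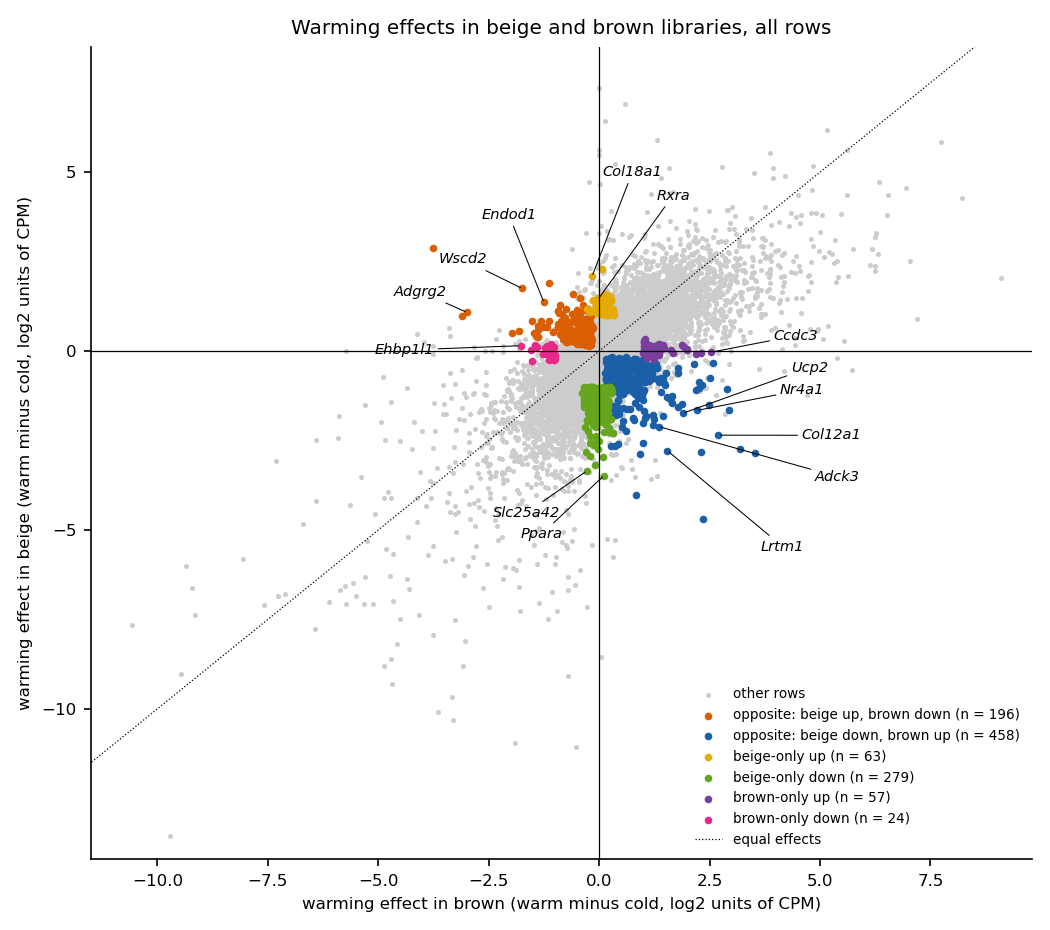
Warming effect in beige (vertical) against warming effect in brown (horizontal), each warm minus cold in log2 units of CPM, 1 point per row of the table; colours mark the response classes and the dotted line equal effects. Opposite responses fill the upper left (196 rows) and lower right (458 rows), beige-only responses lie along the vertical axis and brown-only responses along the horizontal axis.

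A smaller group of genes moved in opposite directions. A row was called opposite when limma called the beige effect, the brown effect and their difference and the effects had opposite signs, which held for 654 rows (5.64%). In 196 rows (1.69%) the gene rose in beige and fell in brown, and in 458 rows (3.95%) it fell in beige and rose in brown. Both effects reached 1 log2 unit in 36 rows (0.310%), of which 5 rose in beige and 31 fell in beige. Just inside that limit lay Plxna1, a semaphorin co-receptor, with -1.14 in beige and 1.00 in brown. Just outside lay Usp6nl, with -1.13 and 0.998. Within set 1 the opposite calls numbered 161 and within set 2 they numbered 539. The effects kept both signs in 643 of the 654 rows within set 1 and in 653 within set 2. Libraries of both sets were used to choose the 654 rows, so the kept signs are no separate support.

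The promoters of 3 genes with large differences of warming effects are shown as examples of the regulatory sequence at their starts. Each runs 5′ to 3′ on the coding strand from 250 bases before to 50 bases after a RefSeq transcript start in GRCm38.p6. Capitals mark TCACNCCAC, the sterol regulatory element, or CCAAT, the site of the factor NF-Y, on either strand, so that CCAAT on the other strand reads ATTGG. Ucp2 (chr7:100493108-100493407, plus strand) has TCACNCCAC beginning 60 bases before the start. Adck3 (chr1:180195971-180196270, minus strand; Coq8a in RefSeq) has 3 CCAAT matches and Slc25a42 (chr8:70212232-70212531, minus strand) has 5. A second listed start of Adck3 (chr1:180193436-180193735, minus strand) has no match to either motif. The 3 promoters shown all hold matches, while the windows of the named genes Ninl and Lrrc15 hold none.
Ucp2: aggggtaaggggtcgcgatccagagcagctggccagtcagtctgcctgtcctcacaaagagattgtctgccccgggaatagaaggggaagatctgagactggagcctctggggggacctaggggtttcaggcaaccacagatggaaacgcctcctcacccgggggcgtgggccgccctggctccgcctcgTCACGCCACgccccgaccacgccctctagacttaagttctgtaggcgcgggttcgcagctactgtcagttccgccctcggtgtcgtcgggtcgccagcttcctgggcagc
Adck3: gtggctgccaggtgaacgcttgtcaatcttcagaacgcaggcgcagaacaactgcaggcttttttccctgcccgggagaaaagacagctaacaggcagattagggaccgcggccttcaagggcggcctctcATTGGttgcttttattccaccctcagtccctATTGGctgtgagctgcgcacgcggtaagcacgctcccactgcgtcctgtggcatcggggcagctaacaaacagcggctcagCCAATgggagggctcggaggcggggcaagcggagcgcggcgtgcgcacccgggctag
Slc25a42: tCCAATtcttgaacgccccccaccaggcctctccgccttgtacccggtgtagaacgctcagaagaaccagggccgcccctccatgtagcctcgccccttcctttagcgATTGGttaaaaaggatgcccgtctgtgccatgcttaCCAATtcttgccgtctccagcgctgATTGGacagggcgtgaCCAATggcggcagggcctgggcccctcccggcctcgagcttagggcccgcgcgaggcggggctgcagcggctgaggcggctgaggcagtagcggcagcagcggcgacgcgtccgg

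CCAAT was about as common over all measured genes as in the response classes with the most genes. It was present in the first listed promoter of 38.2% of 8621 measured genes with a sequence, in 37.4% of 342 genes that fell in beige and rose in brown, and in 38.0% of 216 beige-only genes that fell. TCACNCCAC was present in 1.09% of the measured genes. It was present in 3 of 138 genes that rose in beige and fell in brown (2.17%), in 8 of 342 that fell in beige and rose in brown (2.34%), in 2 of 50 beige-only genes that rose (4.0%), in 2 of 216 that fell (0.926%) and in 0 of 41 and 0 of 20 brown-only genes that rose and fell, counts too small to set a class apart. The other motifs searched on both strands were TGACGTCA (cyclic AMP response element), TGACCTTNA (element of the estrogen-related receptors) and CACGTG (E-box), together with the interferon response element, with overlapping matches allowed. None of the motifs was found in the same window at the first listed starts of Ppara and Nr4a1, which says only that these letters are absent there.

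Ucp2, a mitochondrial carrier of the same family as Ucp1 (uc009inb.3; chromosome 7, 100493337 to 100499629), fell in beige and rose in brown. It stood at 3.65, 3.76 and 3.94 log2 CPM in warm beige libraries, against 5.15, 5.58, 5.60 and 5.76 in cold beige. In brown it stood at 7.26, 7.63, 7.26, 7.33 and 7.19 log2 CPM in warm libraries, against 5.09, 5.37, 5.91, 5.54 and 5.30 in cold libraries. Warm and cold libraries did not overlap in either cell type, while cold beige and cold brown libraries overlapped. The rule for naming genes of a class required warm and cold to be apart wherever a response was called. For those genes it is no separate support. The warming effect was -1.74 ± 0.21 log2 units in beige and 1.89 ± 0.17 in brown (SE), a difference of -3.63 ± 0.27 (limma adjusted p = 4.68e-10). Warm white libraries averaged 3.14 ± 0.45 log2 CPM (SD, n = 5), closer to warm beige than to any other group.

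Nr4a1, an orphan nuclear receptor that many stimuli induce within minutes to hours (uc007xsv.2; chromosome 15, 101253902 to 101274795), showed the same pattern with more spread in the cold. Warm beige libraries held 1.60, 1.56 and 2.14 log2 CPM, against 2.88, 2.82, 3.61 and 4.38 in cold beige. Warm brown libraries held 6.61, 6.77, 6.70, 6.48 and 6.61 log2 CPM, against 4.31, 3.07, 4.66, 4.65 and 5.45 in cold brown. All warm brown libraries lay above all others. The effects were -1.66 ± 0.50 in beige and 2.21 ± 0.42 in brown, and their difference was -3.86 ± 0.65 log2 units (limma adjusted p = 4.14e-05). Without warm beige 1 and 2 the beige effect was -1.28. That fit holds 1 warm beige library and cannot show whether the opposite call rested on the values of warm beige 1 and 2. Warm beige 3, at 2.14 log2 CPM, also lay below every cold beige library.

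Col12a1, a chain of the fibril-associated collagen XII (uc009qus.2; chromosome 9, 79598987 to 79721141), changed more than 4-fold in each direction. It stood at 1.58, 1.81 and 1.5 log2 CPM in warm beige, against 3.89, 3.95, 4.02 and 4.05 in cold beige libraries. In warm brown it stood at 7.48, 7.65, 6.80, 7.05 and 6.98 log2 CPM, against 4.62, 4.79, 4.25, 4.33 and 4.47 in cold brown. As the naming rule required, warm and cold did not overlap in either cell type. The effects were -2.35 ± 0.32 in beige and 2.70 ± 0.26 in brown, a difference of -5.05 ± 0.42 log2 units (limma adjusted p = 1.74e-09). In warm white libraries Col12a1 stood at 0.11 ± 0.85 log2 CPM (SD, n = 5).

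Adck3, a kinase-like protein needed for coenzyme Q synthesis (Coq8a in RefSeq; uc007dvy.2; chromosome 1, 180165238 to 180196020), was the most abundant named gene of this pattern. It stood at 8.08, 7.41 and 6.83 log2 CPM in warm beige, against 9.58, 9.54, 9.55 and 9.51 in cold beige. It stood at 11.73, 11.67, 11.42, 11.46 and 11.47 log2 CPM in warm brown, against 10.51, 10.23, 9.94, 10.30 and 10 in cold brown. Warm and cold were apart in both cell types, as the naming rule required, and brown exceeded beige in the cold as well. The difference of effects was -3.46 ± 0.24 log2 units (limma adjusted p = 1.33e-10). The other 4 named genes that fell in beige and rose in brown were Lrtm1, a leucine-rich repeat membrane protein (-2.78 and 1.54), Lrrc15, another such protein (-1.82 and 1.44), the centrosomal gene Ninl (-1.45 and 1.65) and the glutathione transferase gene Gsta3 (-1.51 and 2.49). Gsta3 has close paralogs, and how many reads it shares with them is not known from the deposited values.

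Wscd2 (uc029vmp.1; chromosome 5, 113489110 to 113589725) rose in beige and fell in brown by nearly the same amount. It held 4.81, 5.02 and 4.70 log2 CPM in warm beige libraries, against 2.77, 3.08, 3.35 and 3.19 in cold beige. It held 1.74, 1.56, 1.97, 1.30 and 2.00 log2 CPM in warm brown, against 3.37, 3.61, 3.43, 3.48 and 3.37 in cold brown. In the cold every brown library exceeded every beige library, and in the warm every beige library exceeded every brown one. The effects were 1.75 ± 0.19 and -1.74 ± 0.16, a difference of 3.48 ± 0.25 log2 units (limma adjusted p = 2.10e-10). Warm white libraries averaged 5.07 ± 0.36 log2 CPM (SD, n = 5), and limma did not call warm beige different from them (-0.22 ± 0.18, adjusted p = 0.347).

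Adgrg2, an adhesion G protein-coupled receptor (uc009utd.2; chromosome X, 160390318 to 160498076), fell in the brown libraries on warming to a mean of 1.12 log2 CPM. It stood at 4.39, 4.40 and 4.44 log2 CPM in warm beige, against 3.25, 3.30, 3.72 and 3.05 in cold beige. Warm brown libraries held 1.09, 1.00, 0.98, 1.35 and 1.18 log2 CPM, against 4.46, 4.52, 3.78, 3.91 and 3.89 in cold brown. Warm and cold were apart in both cell types, as the naming rule required. The difference of effects was 4.07 ± 0.24 log2 units (limma adjusted p = 1.35e-11). Nnmt, which methylates nicotinamide and so consumes methyl groups of S-adenosylmethionine, stood at 7.41, 7.48 and 6.98 log2 CPM in warm beige, against 6.00, 6.40, 6.67 and 6.75 in cold beige. In warm brown it stood at 5.38, 5.63, 5.03, 5.16 and 4.88 log2 CPM, against 6.36, 6.79, 7.00, 6.56 and 6.97 in cold brown. Cold beige and cold brown overlapped, and the difference was 2.35 ± 0.24 log2 units (limma adjusted p = 4.16e-08). The beige effect of Nnmt was 0.83 ± 0.18, and 0.52 without warm beige 1 and 2 (adjusted p = 0.0907).

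The other named genes that rose in beige and fell in brown were Endod1 (effects 1.36 and -1.25), the actin-associated scaffold gene Pdlim7 (1.13 and -0.93), Ksr1, a scaffold of the Raf-MEK-ERK kinases (1.12 and -0.92), the matrix protein gene Matn2 (1.07 and -0.90) and Galnt10, an enzyme that starts mucin-type glycosylation (0.85 and -1.14). Their differences ran between 1.97 and 2.61 log2 units. Of the other rows with both effects above 1 log2 unit, Acta1, skeletal muscle actin, rose by 2.87 ± 0.97 in beige and fell by 3.77 ± 0.80 in brown. Its level was 4.60 and 5.01 log2 CPM in warm beige 1 and 2, which had the high muscle sums, and 2.75 in warm beige 3, against 0.27, 0.33, 1.58 and 2.83 in cold beige. It stood at -2.72, -6.14, -3.71, -3.59 and -3.38 log2 CPM in warm brown and at -0.59, -0.56, 0.01, 0.71 and -0.26 in cold brown. Warm beige 3 overlapped the cold beige libraries, and the part of muscle RNA in these values was not tested.

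**Figure D2:**
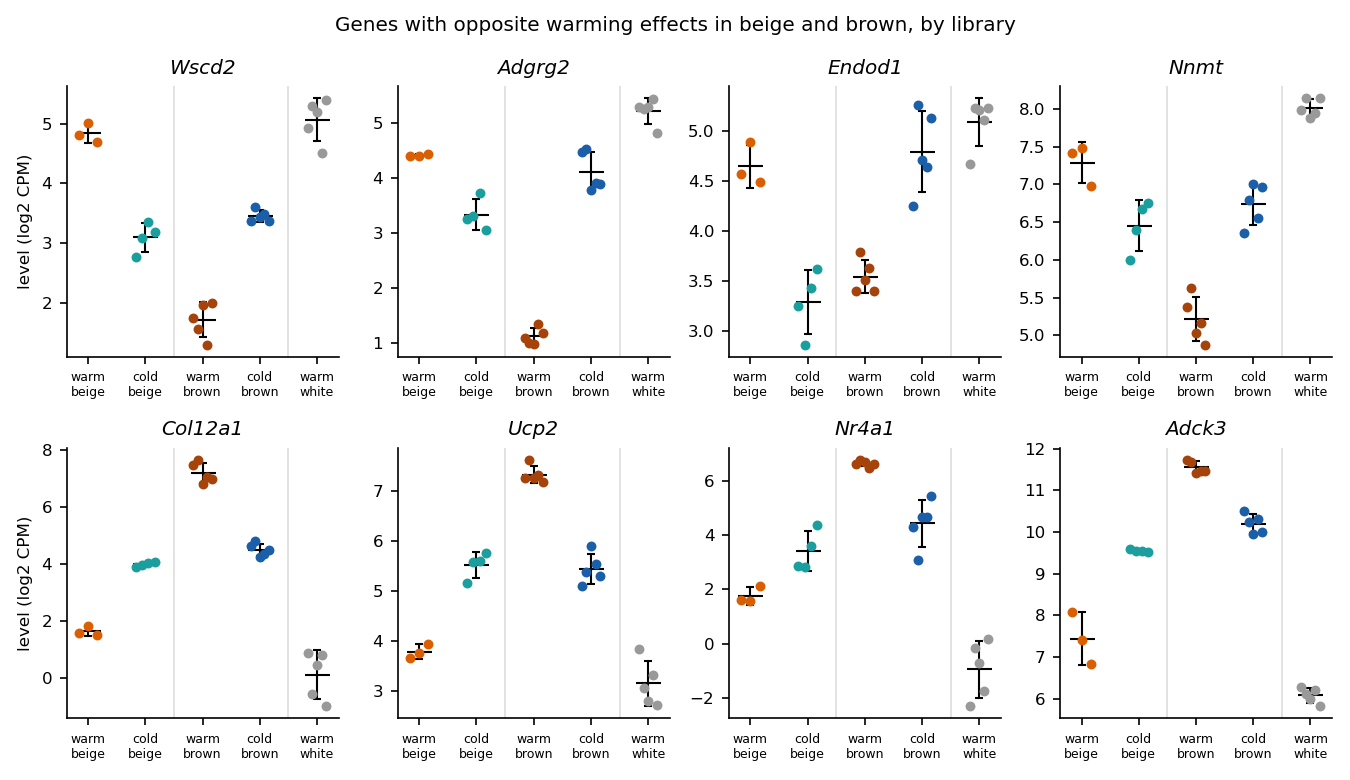
Levels (log2 CPM) of 8 genes with opposite warming effects, 1 point per library, in warm beige (n = 3), cold beige (n = 4), warm brown, cold brown and warm white libraries (n = 5 each); dashes and bars are means and SD. In the upper row (Wscd2, Adgrg2, Endod1, Nnmt) warm lies above cold in beige and below it in brown, and in the lower row (Col12a1, Ucp2, Nr4a1, Adck3) the order is reversed.

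Genes of fuel use and signalling were also among the opposite rows, and those described next, apart from Creld2, were chosen after their values were seen. Adrb3, the β3-adrenergic receptor through which noradrenaline acts on mouse adipocytes, stood at 8.93, 9.90 and 9.50 log2 CPM in warm beige, against 8.78, 8.89, 8.73 and 8.70 in cold beige. It stood at 7.76, 7.13, 7.12, 7.03 and 6.74 log2 CPM in warm brown, against 8.5, 7.97, 8.33, 8.55 and 8.31 in cold brown. Every warm beige library exceeded every cold one, warm beige 1 by little, and every warm brown library lay under every cold one. The effects were 0.67 ± 0.24 and -1.18 ± 0.20, a difference of 1.84 ± 0.31 log2 units (limma adjusted p = 4.22e-05).

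Fabp4, the main fatty acid-binding protein of adipocytes, rose by 0.54 ± 0.13 in beige and fell by 0.28 ± 0.11 log2 units in brown. Its warm and cold brown libraries overlapped, with warm brown 1 at 10.84 and cold brown 1 at 10.82 log2 CPM. Creld2, a chaperone gene of the endoplasmic reticulum (ER), rose by 1.03 ± 0.13 in beige and fell by 0.59 ± 0.11 in brown. In the other direction, Cpt1a, the liver-type carnitine palmitoyltransferase that admits fatty acids to mitochondria, had effects of -0.45 ± 0.18 in beige and 0.61 ± 0.15 in brown. Its brown libraries overlapped, with cold brown 3 at 4.45 and warm brown at 4.24 to 4.66 log2 CPM. The muscle-type phosphofructokinase gene Pfkm had effects of -0.89 ± 0.18 and 0.80 ± 0.15. Aldoc, an aldolase, stood at 3.77, 3.86, 4.12, 3.91 and 3.99 log2 CPM in warm brown, against 1.38, 1.72, 1.61, 2.13 and 1.28 in cold brown. In beige it was near the lower end of the scale, at -1.85, -5.75 and -2.70 log2 CPM in warm and at -0.53, -0.22, -0.72 and -0.96 in cold libraries. Its brown effect was 2.31 ± 0.49 and its beige effect -2.83 ± 0.59 log2 units.

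Beige-only responses were defined by a called beige effect of at least 1 log2 unit, a called difference, and a 95% interval of the brown effect within 0.5 log2 units of 0. They numbered 342 rows (2.95%), of which 279 fell in beige (2.40%) and 63 rose (0.543%), and 16 of the 342 also met the rule for opposite responses. A wider brown interval, within 1 log2 unit, gave 1247 rows, and a fold of 1.5 gave 943. Within set 1 there were 148 and within set 2 there were 305. The 7 genes named here that fell encode mitochondrial proteins, a nuclear receptor and a phosphodiesterase.

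Ppara, the nuclear receptor that drives genes of fatty acid oxidation (uc007xdk.2; chromosome 15, 85734910 to 85806851), had the largest difference among the named beige-only genes. It stood at 6.77, 5.87 and 5.82 log2 CPM in warm beige, against 9.58, 9.60, 9.44 and 9.90 in cold beige. Warm brown libraries held 10.13, 10.11, 10.03, 10 and 10.24 log2 CPM, and cold brown libraries held 10.09, 9.76, 10.07, 9.94 and 10.10. Warm and cold overlapped in brown and were apart in beige, the latter required by the naming rule. The effects were -3.48 ± 0.17 in beige and 0.11 ± 0.14 in brown (95% interval -0.18 to 0.40), and the difference was -3.59 ± 0.22 log2 units (limma adjusted p = 2.43e-11). After quantile normalization the brown effect was 0.41 and called (adjusted p = 0.0140), and with totals computed without the 20 most abundant genes it was 0.24, so under those scalings Ppara was not beige-only.

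Slc25a42, the mitochondrial carrier of coenzyme A, stood at 5.51, 5.17 and 5.16 log2 CPM in warm beige, against 8.65, 8.59, 8.62 and 8.64 in cold beige. In brown it stood at 8.53, 8.45, 8.45, 8.56 and 8.39 log2 CPM in warm and at 8.83, 8.82, 8.73, 8.74 and 8.66 in cold libraries. The warm beige libraries lay far below all the others, and warm and cold brown were apart by a small step. The effects were -3.35 ± 0.10 in beige and -0.28 ± 0.08 in brown (95% interval -0.45 to -0.11), a difference of -3.07 ± 0.13 log2 units (limma adjusted p = 1.68e-13). Coq10a, a coenzyme Q-binding protein, differed by -2.73 ± 0.17 log2 units. Ak3, a nucleotide kinase of the mitochondrial matrix, differed by -2.61 ± 0.12, the iron-sulfur protein gene Cisd3 by -2.51 ± 0.15 and Bola3, which acts in iron-sulfur cluster assembly, by -2.51 ± 0.17. The brown effect of Ak3 was small but called (0.32 ± 0.08, limma adjusted p = 0.000941), so Ak3 also met the rule for opposite responses, and it left the beige-only class without cold brown 2 or 4 or warm brown 3 or 5 and under both other scalings. Cisd3, with a brown interval of -0.49 to -0.09, left the class without any single brown library except warm brown 5 and within either set, and Slc25a42 left it within either set.

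Pde4a, which breaks down cyclic AMP, was the named signalling gene of this kind. Warm beige libraries held 3.81, 3.45 and 3.37 log2 CPM, against 6.28, 6.37, 6.68 and 6.73 in cold beige. Its brown effect was 0.08 ± 0.10 and its difference -3.05 ± 0.15 log2 units (limma adjusted p = 9.57e-13). Prkaca, a catalytic subunit of the cyclic AMP-dependent kinase, fell in beige by 1.97 ± 0.07, with -0.12 ± 0.06 in brown.

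Beige-only genes that rose included Rxra, the dimer partner of Ppara, Pparg and other nuclear receptors. It stood at 8.94, 9.13 and 9.05 log2 CPM in warm beige, against 7.60, 7.56, 7.65 and 7.57 in cold beige. In brown it stood at 7.20, 7.32, 7.37, 7.14 and 7.30 log2 CPM in warm and at 7.36, 7.24, 7.31, 7.29 and 7.29 in cold libraries. The warm beige libraries stood apart from all the other beige and brown libraries, and the difference was 1.48 ± 0.10 log2 units (limma adjusted p = 1.24e-10). Col18a1, a basement membrane collagen, differed by 2.25 ± 0.22, with 7.65, 8.07 and 7.84 log2 CPM in warm beige, against 5.77, 5.98, 5.72 and 5.60 in cold beige. The other named genes were the receptor genes Il11ra1 (1.58), Il17ra (1.45) and Ogfr (1.46), the anion channel subunit gene Lrrc8b (1.49), the antiproliferative gene Btg1 (1.46) and the small GTPase gene Rab13 (1.43). Btg1 also met the rule for opposite responses, with a called brown effect of -0.28 ± 0.09 (limma adjusted p = 0.0105). Col18a1 left the beige-only class without cold brown 2 or 5 or warm brown 3, Il17ra without cold brown 2 or warm brown 4 or 5, and Btg1 without cold brown 2 or 4 or warm brown 3 or 5. After quantile normalization Col18a1, Il17ra and Lrrc8b were not beige-only. Fibroblast and endothelial sums were also higher in warm than in cold beige libraries, and their part in these increases was not tested.

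Brown-only responses, by the mirror rule, were fewer, at 81 rows (0.698%). In brown 57 rose (0.491%) and 24 fell (0.207%). Its size and members moved with the choice of scale and libraries. It held 53 rows with totals computed without the 20 most abundant genes, 18 of them among the 81, and 41 without warm beige 1 and 2, 31 of them among the 81. Within set 1 there were 16 and within set 2 there were 61.

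Ccdc3, a secreted protein of adipocytes and endothelium (uc008ifo.1; chromosome 2, 5137311 to 5235967), had the largest difference among the named genes of this class. Warm beige libraries held 7.92, 7.77 and 7.51 log2 CPM, and cold beige libraries held 7.73, 7.58, 7.79 and 7.96. Warm brown libraries held 9.18, 9.35, 9.10, 9.24 and 9 log2 CPM, against 6.29, 6.66, 6.74, 6.92 and 6.54 in cold brown. Beige libraries overlapped and lay between the brown groups, which were apart as the naming rule required. The effects were -0.03 ± 0.14 in beige (95% interval -0.32 to 0.26) and 2.54 ± 0.12 in brown, a difference of -2.58 ± 0.18 log2 units (limma adjusted p = 1.78e-10). Within set 1 and without warm beige 1 and 2 its beige effect was -0.33 and -0.25, and it left the class.

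Gas1, a membrane protein that binds hedgehog ligands, stood at 6.10, 5.64 and 5.10 log2 CPM in warm beige and at 5.91, 5.60, 5.32 and 5.53 in cold beige. It stood at 8.69, 8.47, 8.70, 8.55 and 8.88 log2 CPM in warm brown, against 7.21, 6.41, 6.73, 6.48 and 6.5 in cold brown. Warm white libraries averaged 2.17 ± 0.14 log2 CPM (SD, n = 5). Gas1 is also on the fibroblast list, and the part of those cells in its values was not tested. Ampd2, an AMP deaminase, rose by 1.98 ± 0.07 in brown with 0.07 ± 0.09 in beige. The other named genes that rose were Nkain1 (brown effect 2.31), the Wnt receptor gene Fzd8 (2.20), Slc45a4 (1.93), the cytoskeletal gene Gas2 (1.88) and Inip, a subunit of a single-stranded DNA-binding complex (1.68). With totals computed without the 20 most abundant genes, Ccdc3 and Ampd2 stayed brown-only and the other 6 did not, with beige effects of 0.13 to 0.40. Nkain1 left the class without any single beige library, and Fzd8 without any except cold beige 3. Gas1 left it without cold beige 1 or warm beige 1 or 3, Gas2 without cold beige 1 or 2 or warm beige 2 or 3, and Inip without warm beige 1.

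Ehbp1l1, a protein of membrane traffic (uc008gev.2; chromosome 19, 5707369 to 5726576), led the brown-only genes that fell. It stood at 7.91, 8.41 and 8.43 log2 CPM in warm beige and at 8.34, 8.28, 8.06 and 7.73 in cold beige. It stood at 5.72, 5.22, 5.56, 5.41 and 5.63 log2 CPM in warm brown, against 7.16, 7.19, 7.38, 7.43 and 7.30 in cold brown. The brown effect was -1.78 ± 0.12 and the beige effect 0.15 ± 0.14, a difference of 1.93 ± 0.18 log2 units (limma adjusted p = 1.54e-08). After quantile normalization its beige effect was 0.47 (adjusted p = 0.00592). Gab2, an adaptor of receptor tyrosine kinases, fell in brown by 1.40 ± 0.10, the Wnt co-receptor gene Lrp5 by 1.53 ± 0.07, the receptor family gene Lrp11 by 1.46 ± 0.10 and Fam13b by 1.55 ± 0.13. The transcription factor gene Cebpg fell by 1.18 ± 0.08, the purine nucleoside phosphorylase gene Pnp by 1.23 ± 0.11 and the matricellular protein gene Sparc by 1.10 ± 0.10. Lrp5 also fell in beige by a small but called step (-0.27 ± 0.08, limma adjusted p = 0.00663), with warm and cold beige libraries apart. With totals computed without the 20 most abundant genes, Lrp5 stayed brown-only and the other 7 did not, with beige effects of 0.24 to 0.42. Ehbp1l1 left the class without cold beige 1 or 2 or warm beige 1, Gab2 without warm beige 1, Lrp5 without warm beige 2, Lrp11 without cold beige 1, Pnp without warm beige 3 and Sparc without cold beige 4 or warm beige 1 or 3.

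**Figure D3:**
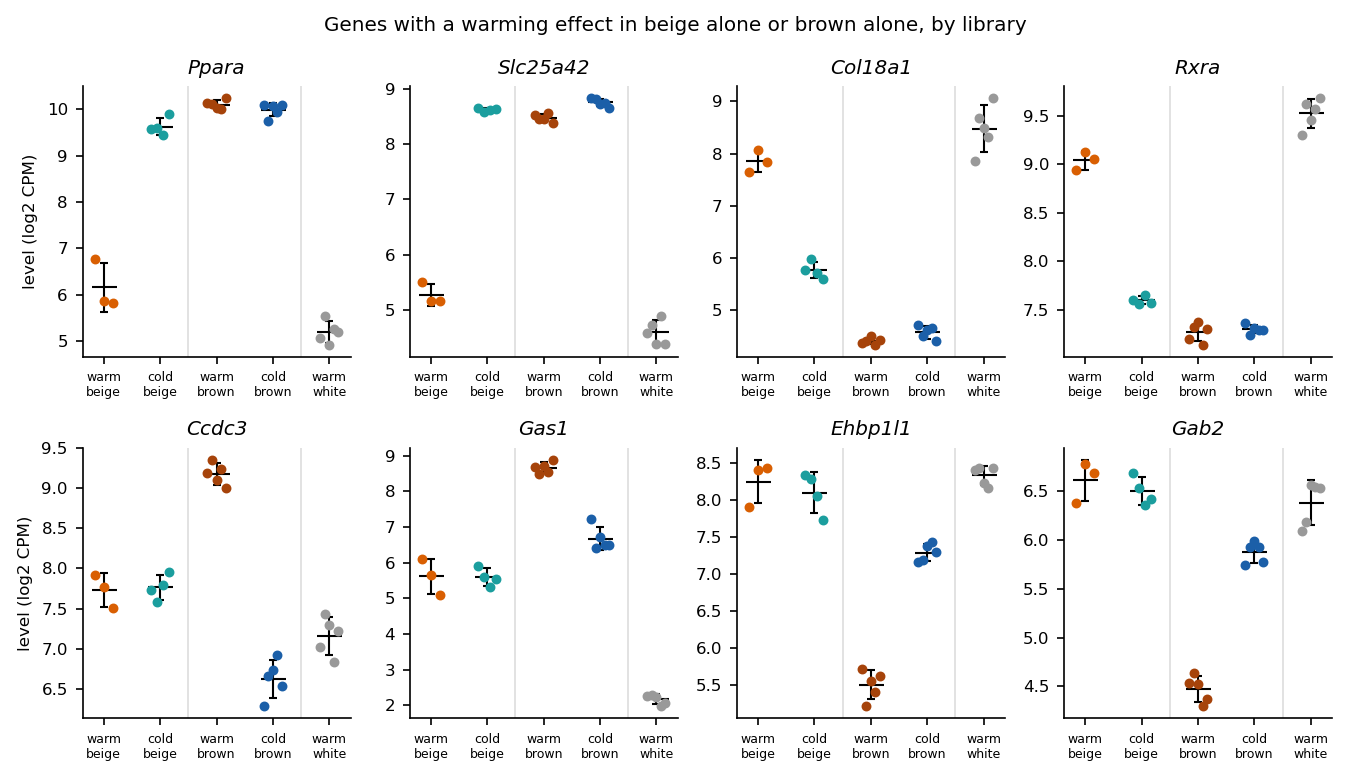
Levels (log2 CPM) of 4 beige-only genes (upper row) and 4 brown-only genes (lower row), 1 point per library, in warm beige (n = 3), cold beige (n = 4), warm brown, cold brown and warm white libraries (n = 5 each); dashes and bars are means and SD. Ppara and Slc25a42 were low in warm beige and Col18a1 and Rxra high there, while Ccdc3, Gas1, Ehbp1l1 and Gab2 separated warm from cold libraries in brown and overlapped in beige.

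Counts for the lists of known pathways are to be read against the shares over all rows, 32.4% downward (more negative in beige) and 14.8% upward. Of 20 measured genes of the tricarboxylic acid cycle, all 20 differed downward and 0 upward, with a median difference of -1.72 log2 units against -0.17 over all rows, and with 19 downward calls under quantile normalization and with totals computed without the 20 most abundant genes. In the nuclear-encoded respiratory chain 55 of 59 differed downward and 1 upward, with a median of -1.24, and 19 were beige-only. In beige 56 of these genes fell and 1 rose. In brown 33 fell and 1 rose, but after quantile normalization 24 fell and 13 rose, so the part of the chain that fell in brown depended on scaling. Atp5g3, a subunit of ATP synthase, was the member that differed upward, with 0.75 in beige and -0.32 in brown.

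Fatty acid oxidation had 22 of 25 members differing downward and 1 upward, with a median of -1.12 log2 units. Cpt1b, the muscle-type carnitine palmitoyltransferase, averaged 4.28 ± 0.56 log2 CPM in warm beige and 9.69 ± 0.25 in cold beige (SD, n = 3 and 4), and 9.52 ± 0.17 in warm brown and 10.26 ± 0.02 in cold brown (SD, n = 5 each). Its difference was -4.67 ± 0.30 log2 units (limma adjusted p = 4.13e-11). Acaa2, a thiolase of the same pathway, was called opposite, at -2.64 ± 0.13 in beige and 0.28 ± 0.11 in brown. Its brown libraries overlapped, with warm brown 3 at 10.41 and cold brown 1 at 10.45 log2 CPM. Of 25 thermogenic genes 21 differed downward and 0 upward. Fabp3, the fatty acid-binding protein of muscle and brown fat, fell by 6.13 log2 units in beige, with -0.44 in brown. In glycolysis and glucose uptake 15 of 23 differed downward and 0 upward, with a median of -1.19, among them Ldhb at -2.29 ± 0.21 and the enolase gene Eno1 at -2.06 ± 0.13.

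The lists of lipid synthesis had counts nearer the shares over all rows of 32.4% downward and 14.8% upward, and nothing particular to them is read from these counts. Of 17 genes of fatty acid synthesis 7 differed downward and 1 upward, with a median of -0.32 log2 units, while 13 fell in beige and 13 in brown. Within set 1 the difference was called downward in 1 and upward in 0, with a median of 0.04. Elovl6, a fatty acid elongase, fell by 4.69 in beige and by 2.93 in brown. Of 26 genes of triglyceride synthesis and lipolysis 8 differed downward and 5 upward, with a median of -0.01. Dgat2, which makes triglyceride, was beige-only, with -1.70 ± 0.13 in beige and 0.01 ± 0.11 in brown. Cholesterol genes counted 8 of 20 downward and 4 upward. Of these Msmo1, a demethylase of the pathway, was brown-only, at -1.16 in brown and -0.01 in beige.

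The unfolded protein response and ER chaperones differed upward in 13 of 22 members and downward in 2, with a median of 0.62 log2 units. In beige 12 rose and 4 fell, and in brown 6 rose and 10 fell. With totals computed without the 20 most abundant genes 16 differed upward and 1 downward, and in brown 10 rose and 8 fell, so the direction in brown depended on scaling. Pdia6, a disulfide isomerase, stood at 8.23, 8.11 and 7.73 log2 CPM in warm beige, against 6.66, 6.53, 6.61 and 6.52 in cold beige. It stood at 7.02, 6.96, 6.94, 6.92 and 6.84 log2 CPM in warm and at 6.92, 6.83, 6.79, 6.97 and 6.95 in cold brown libraries, which overlapped. Hsp90b1, the ER form of Hsp90, rose by 1.30 ± 0.12 in beige with 0.15 ± 0.10 in brown. Within set 1, with its single warm beige library, 2 members differed upward and 0 downward, and without warm beige 1 and 2 the counts were 9 and 1.

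In adrenergic and cyclic AMP signalling 10 of 24 members differed downward and 7 upward, beside 32.4% and 14.8% of all rows (9 and 0 within set 1). Adcy5, an adenylate cyclase, averaged 9.39 ± 0.23 log2 CPM in warm beige and 6.68 ± 0.44 in cold beige (SD, n = 3 and 4), and 7.12 ± 0.21 in warm brown and 0.81 ± 0.44 in cold brown (SD, n = 5 each). It rose in both, by 3.60 ± 0.29 log2 units less in beige (limma adjusted p = 1.22e-09). Adcy9, another cyclase, was brown-only, with -0.07 ± 0.09 in beige and 1.29 ± 0.07 in brown. Rgs2, which dampens G protein signalling, rose by 0.60 in beige and by 2.85 in brown.

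Interferon response genes rose in both cell types, 23 of 27 in beige and 26 in brown. On the deposited scale 11 differed downward and 0 upward, with a median of -0.73 log2 units, but after quantile normalization 7 differed upward and 4 downward, with a median of 0.14, so the direction of the difference depended on scaling. Without warm beige 1 and 2, 5 differed downward and 0 upward. Gbp2, an interferon-induced GTPase, rose by 2.21 in beige and by 4.35 in brown. Of 15 clock genes 7 differed downward and 0 upward, with a median of -0.71. Arntl, a core activator of the clock, averaged 2.02 ± 0.72 log2 CPM in warm beige and 4.04 ± 0.47 in cold beige (SD, n = 3 and 4), with a difference of -2.23 ± 0.44 (limma adjusted p = 0.000245). The labels give no hour of collection, so time of day and group cannot be told apart for these genes.

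The next lists are again set beside 32.4% of all rows downward and 14.8% upward. Cytosolic ribosomal protein genes differed downward in 12 of 41 and upward in 4, with a median of -0.07 log2 units, but in 10 and 10 after quantile normalization and in 14 and 0 without warm beige 1 and 2. White adipocyte genes counted 6 of 21 downward and 6 upward, and Lep, which encodes leptin, was among those that rose less in beige (-2.95 ± 0.52). Matrix and remodelling genes differed upward in 7 of 28 and downward in 2, with a median of 0.27. These counts were 15 and 2 after quantile normalization, with a median of 0.75, against 5 and 5 without cold brown 1 and 5 and 2 and 2 within set 1. Lox, a collagen cross-linking enzyme, was opposite, at -1.63 in beige and 0.63 in brown. For the remaining lists, upward and downward calls were 3 and 4 of 12 for class I antigen presentation, 3 and 3 of 14 for the amino acid response, 2 and 4 of 21 for immediate early genes and 8 and 9 of 29 for lysosome and autophagy. They were 1 and 2 of 13 for complement, 4 and 0 of 21 for developmental position factors and 4 and 4 of 20 for insulin and IGF signalling. These counts also depended on scaling. After quantile normalization they were 7 and 1 for antigen presentation, 4 and 4 for the amino acid response, 5 and 5 for immediate early genes and 10 and 8 for lysosome and autophagy. They were then 6 and 1 for complement, 9 and 0 for position factors and 7 and 4 for insulin and IGF signalling. Within set 1 these lists had 0 to 2 upward and 0 to 4 downward calls each.

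For marker lists of other cells the called differences depended on scale and libraries. Endothelial markers differed upward in 2 of 18 and downward in 0, with a median of 0.28 log2 units, but without cold brown 1 and 5 upward in 0 and downward in 3, with a median of -0.41. Fibroblast markers differed upward in 1 of 17 and downward in 3, against 4 and 2 after quantile normalization and 0 and 4 without cold brown 1 and 5. Limma called 0 of 8 measured macrophage markers on the deposited scale, and 0 of them had an unadjusted p under 0.05, while 4 rose in beige and 2 in brown. After quantile normalization 3 macrophage markers differed upward, and 1 differed downward within each of the sets. Skeletal muscle markers differed upward in 4 of 16 and downward in 1. Upward calls numbered 11 after quantile normalization, 10 with 1 CPM added and 11 within set 2, against 0 within set 1 and 1 without warm beige 1 and 2. Smooth muscle and pericyte markers differed upward in 1 of 9 and downward in 0, with 5 upward after quantile normalization and 0 without warm beige 1 and 2. The lymphocyte and mammary lists had 1 measured member each, of which Prlr in the mammary list differed downward, and neuronal and Schwann cell genes differed downward in 2 of 4. Of 3 measured red blood cell genes limma called 0 and of the single lymphocyte gene 0, also at an unadjusted p under 0.05, and within set 2 it called 1 of each downward.

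**Figure D4:**
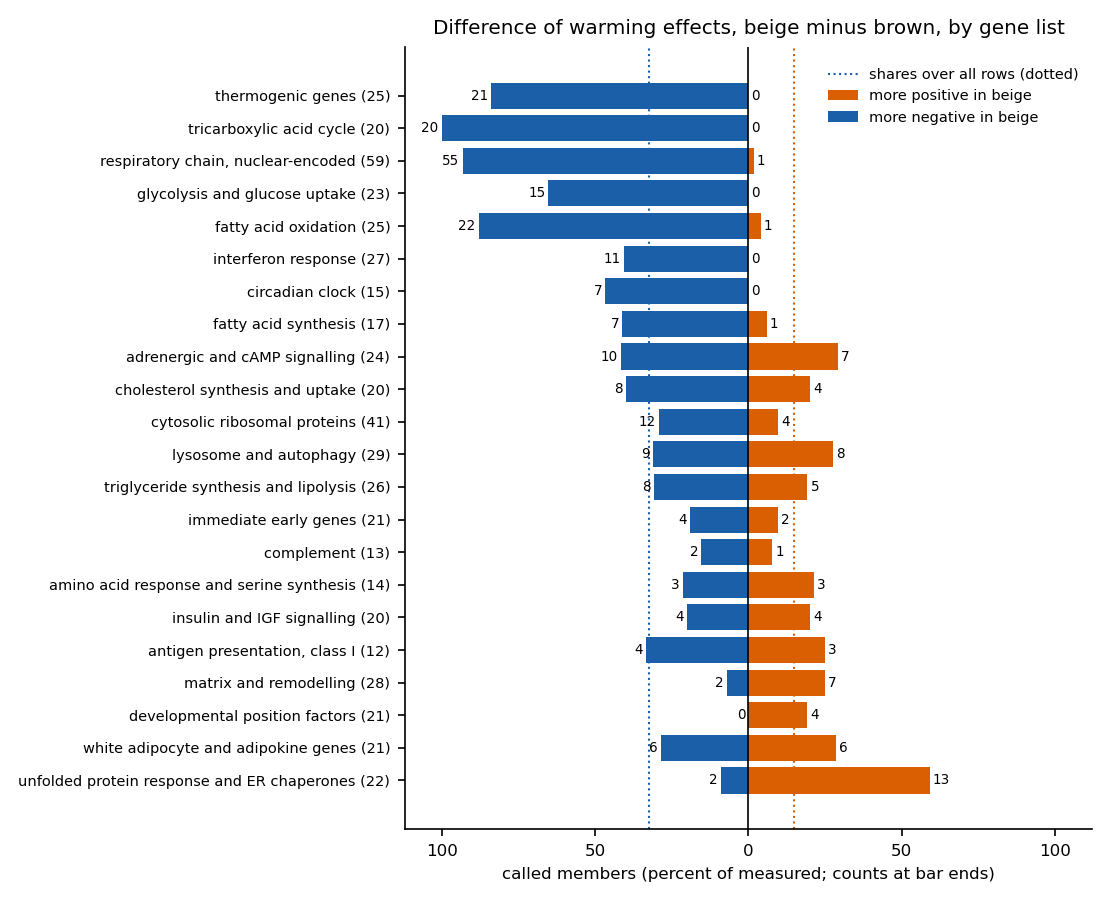
Share of the measured members of each pathway list (number in brackets) with a called difference of warming effects, beige minus brown: more negative in beige to the left (blue), more positive to the right (orange), with counts at the bar ends; dotted lines mark the shares over all rows (32.4% and 14.8%). Tricarboxylic acid cycle (20 of 20), respiratory chain (55 of 59) and fatty acid oxidation (22 of 25) lie far to the left and the unfolded protein response (13 of 22) to the right.

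The same differences can be read as changes in the gap between the cell types, since the difference of warming effects equals the beige minus brown gap in the warm less that gap in the cold. Of the 5477 called rows, the gap was wider in the warm with the same sign in 3058 (55.8%), narrower in 534 (9.75%) and of the opposite sign in 1885 (34.4%). Ppara differed between beige and brown by -3.95 log2 units in the warm and by -0.36 in the cold. Among opposite rows that rose in beige the gap changed sign in 98 of 196 and among those that fell in beige in 185 of 458. For Wscd2 the gap was 3.13 in the warm and -0.35 in the cold.

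**Figure D5:**
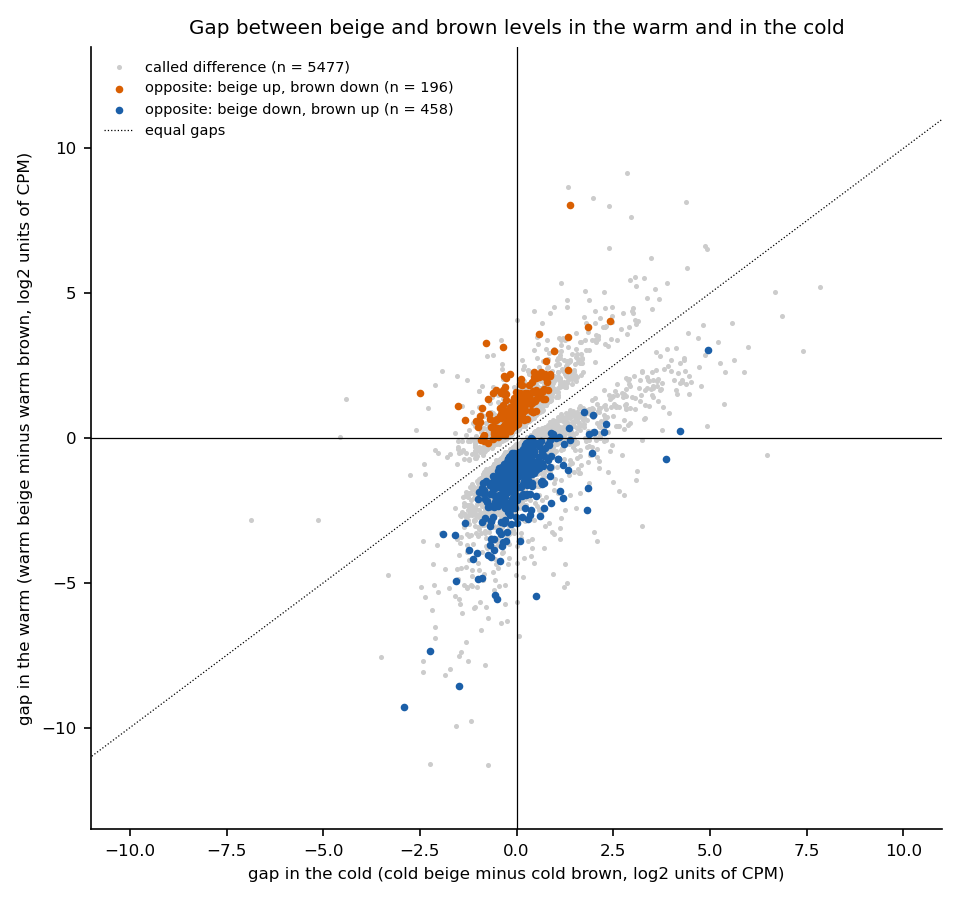
Beige minus brown gap in the warm (vertical) against the same gap in the cold (horizontal), in log2 units of CPM, for the 5477 rows with a called difference; the dotted line marks equal gaps. Rows that fell in beige and rose in brown (458, blue) lie under the line and rows that rose in beige and fell in brown (196, orange) above it.

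Warm white libraries, which the difference does not use, placed these genes relative to inguinal white adipocytes. The mean of warm white lay on the warm beige side of the midpoint between cold and warm beige for 63 of 63 beige-only genes that rose and for 270 of 279 that fell. The same held for 163 of 196 opposite rows that rose in beige and for 342 of 458 that fell in beige, against 6792 of all 8453 rows called in beige (80.4%). Limma called warm beige different from warm white in 4572 of 11603 rows (39.4%). Warm beige Ppara exceeded warm white by 0.96 ± 0.16 log2 units (limma adjusted p = 7.06e-05). Rxra differed by -0.49 ± 0.08 as warm beige minus warm white (limma adjusted p = 2.42e-05). Ogfr, Rab13 and Il17ra differed by 0.03 ± 0.12, -0.03 ± 0.13 and -0.12 ± 0.17 (limma adjusted p of 0.888, 0.896 and 0.602). Limma also called Col18a1 (-0.62 ± 0.16), Il11ra1 (-0.47 ± 0.13) and Lrrc8b (-1.13 ± 0.15) different, and not Btg1 (-0.19 ± 0.11). No difference from warm white was called for 37 of 63 beige-only genes that rose (58.7%), near the 60.6% of all rows. The beige-only rule needs a beige effect of 1 log2 unit and the 8453 rows do not, so the shares on the warm beige side are a description.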

How the data were processed

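Per the labels' protocols, polysomes were pulled down with anti-GFP from NuTRAP fat, ribosomal RNA was removed with Ribo-Zero, and Nextera XT libraries were sequenced. The submitters' processing notes name HISAT2, Picard, featureCounts, edgeR and the mm10 build, without versions or roles. The authors deposited log2 CPM values of 22 mRNA libraries and 11603 rows (11544 symbols), which ran between -7.21 and 15.78. The depth is unknown, so no counting interval is given, and p-values measure the spread between libraries. The file name speaks of batch, and no source used here says whether a batch term was applied. With group means fitted, the 2 sets of libraries differed by at most 0.005 log2 units in any row. The brown and inguinal parts of the sets were matched to keep this shift small, and the other match gave up to 1.9. The values thus look like values from which a term for these sets was taken out. The fit below gives up no residual degree of freedom for such a term.

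Limma 3.58.1 (R 4.3.3, trend) was fitted to all 22 libraries in 5 groups with 17 residual degrees of freedom. The contrasts were warm minus cold in beige, the same in brown, their difference, and warm beige minus warm white, with Benjamini-Hochberg adjustment over 11603 rows and a threshold of 0.05. The procedure was tested on simulated data. The numbers given to libraries here are replicate numbers, which follow the order of deposit within a group. In beige they partly differ from the numbers in the library names. No label says that libraries of equal number are paired. No 2 libraries had equal values in more than 2.57% of rows.

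Named genes are the 8 with the largest effects in each response class that had, among the 4 beige and brown groups, a highest mean of at least 3 and a lowest of at least 0 log2 CPM, 1 row, no clone name, warm and cold ranges apart where a response was called, and the same sign with 1 CPM added. Of these, 1 is not reported here. For lists, up to 4 members with the largest differences were named. Adrb3, Fabp4, Cpt1a, Pfkm, Aldoc, Acta1, Adcy9 and Atp5g3 were chosen after their values were seen. The comparison, the classes and the lists were all chosen with earlier results of these data known. Promoters and gene positions came from RefSeq (GRCm38.p6), and 8621 of 11544 symbols had a promoter. Alternatives covered scaling, filters, an added 1 CPM, library weights, replicate blocks, the sets of libraries, other limits and leaving out each library.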

Additional observations from a re-analysis of the deposited data

Results flagged for a closer look

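In 8 of 192 groups of 4 or 5 libraries of the named genes, 1 library lay apart from the rest by Dixon's limit at 95%, and chance alone gives about 1 in 20 groups. Endod1 stood at 4.67 log2 CPM in warm white 1, with the next library at 5.11. Ksr1 stood at 3.75 in cold beige 1 (next 4.22), and Lrrc15 at 5.26 in warm brown 2 (next 5.76). For Lrrc8b, cold beige 2 held 0.71 log2 CPM (next 1.20) and cold brown 4 held 3.72 (next 3.45). Nkain1 stood at 4.09 in warm brown 2 (next 3.58), Ampd2 at 5.42 in cold beige 2 (next 5.65) and Sparc at 9.23 in cold beige 4 (next 9.02). The 8 values fell in 6 libraries with at most 2 in any of them.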

How the results depend on the processing

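Leaving out each library in turn gave 5057 to 5455 unequal warming effects (5477 with all libraries), 577 to 666 opposite responses (654), 33 to 45 opposite responses of at least 2-fold (36), 307 to 394 beige-only (342) and 63 to 86 brown-only responses (81). Within set 1, with 1 warm beige library and fewer samples, these were 1969 unequal, 161 opposite, 148 beige-only and 16 brown-only. With a fold of 1.5, opposite responses of at least that fold numbered 142, against 36 at 2-fold. Beige-only responses then numbered 943 and brown-only responses 313. With a margin of 1 log2 unit there were 1247 beige-only and 383 brown-only responses. Both limits are looser by construction. Brown-only responses numbered 53 with totals computed without the 20 most abundant genes, and 41 without warm beige 1 and 2, an alternative added after the data were seen; the cause was not tested.

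Scaling changed which genes met the rules and the balance of directions within a class. Opposite rows that rose and fell in beige numbered 341 and 404 after quantile normalization, against 196 and 458 on the deposited scale. Beige-only rows that rose and fell then numbered 169 and 247, against 63 and 279. Brown-only rows numbered 31 and 29, against 57 and 24. With the 20 most abundant genes left out of the totals these pairs were 231 and 417, 89 and 238, and 42 and 11. Of the 654 opposite genes 477 were also called after quantile normalization and 417 with the 20 most abundant genes left out of the totals, of the 342 beige-only genes 210 and 185, and of the 81 brown-only genes 35 and 18. Of 3799 values of 131 named genes under alternatives, 87 lost and 16 gained a call. The sign changed with a call in either fit in 0 values, and with a call in neither fit in 1. Named class differences that lost their call did so within set 1, namely Pdlim7 (2.41, adjusted p = 0.0588), Il17ra (1.23, 0.0926), Pnp (0.78, 0.0514) and Sparc (1.10, 0.0503).

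In no pair of groups did every pair of libraries with the same replicate number correlate above 0.1. Such correlations cannot show whether libraries shared an animal. A replicate block gave 5331 unequal, 638 opposite, 38 opposite of at least 2-fold, 341 beige-only and 82 brown-only responses, and a block by the number in the library name gave 5305, 612, 36, 326 and 82. By that number, each of 3 warm beige libraries correlated best with its own warm brown number (r of 0.0653 to 0.205). In every other pair of groups, by either number, 0 or 2 libraries did so. No sharing of animals is read from these correlations. Rows near the floor of -5 log2 CPM have poorly known effects, and the number of warm beige libraries limits every difference.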
